A study of Mus musculus with 7 samples.

Results

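Erythropoietin receptor signalling was described here through 8 named genes, Epor, Jak2, Stat5a, Stat5b, Bcl2l1, Pim1, Sh2b3 and Foxo3. They were chosen by name, and 6 of them had coding exons among the 5194 genes of the expression table that entered the comparison. Jak2 and Stat5a are not listed there and were not analysed here. For the 6 listed genes, all 18 coding exons were read in both stages, together with every EKLF peak within 50 kb of them.

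The samples were fetal liver cells of mice at embryonic stage E13.5 that all carried Klf1 with a hemagglutinin tag. Klf1 encodes EKLF, a zinc finger transcription factor of red cells, and an antibody against the tag was used for chromatin immunoprecipitation sequencing (ChIP-seq). Progenitors were sorted as Ter119-CD71- and Ter119-CD71+ cells and erythroblasts as Ter119+CD71+ cells, where Ter119 marks maturing red cells and CD71 is the transferrin receptor. The 7 samples were 1 ChIP and 1 input library per stage, 1 progenitor RNA library and 2 erythroblast RNA libraries. No group received an agent, and the animals of all groups shared the tagged allele. The progenitor sort joins cells with and without CD71, so it is a mixed population. Per the labels, each population was sorted 3 or more times.

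Erythropoietin is the hormone that keeps maturing red cell precursors alive. Its receptor, encoded by Epor, has no kinase of its own and signals through the bound kinase JAK2, which phosphorylates the transcription factors STAT5A and STAT5B. STAT5 drives survival and feedback genes, among them Bcl2l1, which encodes the anti-apoptotic protein BCL-XL, and Pim1, which encodes a serine/threonine survival kinase. Sh2b3 encodes LNK, an adaptor that restrains JAK2, and Foxo3 encodes a factor that the AKT branch of the pathway keeps out of the nucleus and that serves red cell maturation and oxidant defence.

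The expression table gives 1 value per coding exon and stage, a coverage signal that is not divided by exon length. Levels are therefore compared for the same gene or exon between stages and not between genes. There is 1 column per stage, so no stage difference has a replicate check, an SD over samples or a p-value. A gene counts as risen or fallen if its summed exon values differed by 2-fold or more on the scale log2((erythroblasts + 1) / (progenitors + 1)). This is called the 2-fold rule, or the rule, and it is applied to single exons in the same way. Fold values printed for a gene or exon are plain ratios without the 1 added. A low gene or exon can therefore exceed 2-fold as a plain ratio and still miss the rule. The lowest listed value was 0.800 in both columns. Among the members' exons the smallest value stood for 2691 coverage steps, a step being the smallest unit of its column. Of the markers of maturing erythroblasts, 7 of 12 were listed, as 5 items that all rose, with a summed coverage of 633 in progenitors and 9450.0 in erythroblasts. Tfrc, among these items, encodes CD71, by which the cells were sorted, so its rise is not independent of the sort. Of 6 progenitor markers Lyl1 and Myc were listed and both fell, from a sum of 461 to 59.9. No marker of macrophages (0 of 5), hepatocytes (0 of 4), B lymphoid cells (0 of 3), granulocytes and mast cells (0 of 3) or endothelial and stromal cells (0 of 3) was listed, and Gp1ba, 1 of 4 megakaryocyte markers, went from 9.35 to 31.6. Only exons at or above the lowest value in both columns are in the table, so unlisted markers were not analysed here.

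Of the 6 listed members, Bcl2l1, Pim1 and Foxo3 rose, Sh2b3 fell, and Epor and Stat5b stayed under the 2-fold rule. The rises were 9.80-fold for Bcl2l1, 4.20-fold for Pim1 and 2.41-fold for Foxo3. Over all 5194 genes 15.3% rose and 13.2% fell. In these bulk populations, a change in the number of cells that express a gene and a change in RNA per cell cannot be told apart. The marker sums above moved with the same contrast, and their part in these differences was not tested.

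**Figure D1:**
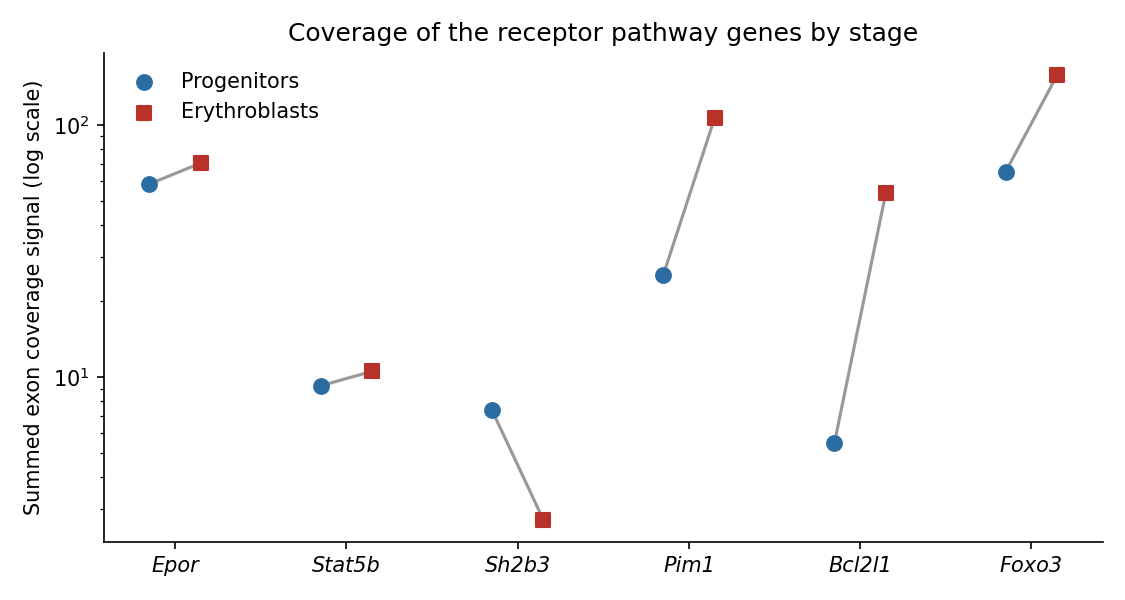
Summed exon coverage signal (log axis, no length division) of the 6 listed genes in progenitors (circles) and erythroblasts (squares), 1 value per stage. Bcl2l1 goes from 5.48 to 53.7, while Epor goes from 58.2 to 70.5 and Sh2b3 from 7.39 to 2.72.

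Epor, the receptor gene, had a summed coverage of 58.2 in progenitors and 70.5 in erythroblasts. The log2 difference was 0.27. The receptor's transcript was thus listed in both stages at levels 1.21-fold apart. It had 7 listed exons on the reverse strand of chromosome 9, with starts from 21763503 to 21766648 (build mm9, as for all exons and peaks). Of these 5 were higher in erythroblasts and none passed the rule in either direction. The exon starting at 21764205 went from 1.47 to 3.11, 2.12-fold as a plain ratio. The 3'-most listed exon held most of the signal, 31.6 in progenitors and 40.4 in erythroblasts, or 54.2% and 57.4% of the gene's coverage. Exon length is not divided out, so how far this share follows length was not tested. The fourth listed exon from that end went from 5.30 to 4.04 and the fifth from 6.72 to 5.60. Exon differences ranged from -0.32 to 0.74 with an SD of 0.39 on the log2 scale, against a median SD of 0.53 over the 206 genes with as many listed exons. The exons of Epor therefore moved little and more evenly than in most such genes.

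Stat5b, the listed STAT5 gene, had a coverage of 9.23 in progenitors and 10.5 in erythroblasts (log2 difference 0.17). Its 2 listed exons on chromosome 11 went opposite ways. The exon starting at 100644410, the 3'-most coding exon, went from 3.23 to 5.67, and the one at 100648523 went from 5.995 to 4.86. With either exon alone the difference would be 0.66 or -0.26, so no direction is read for Stat5b. Stat5a and Stat5b are close paralogs, and the sources used here do not say how reads that match both were counted.

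Sh2b3, the inhibitor, stood at 7.39 in progenitors and at 2.72 in erythroblasts (log2 difference -1.17). Of all genes 9.97% had a lower difference, and it was the only member that fell. The value rests on 1 listed exon, which starts at 122267780 on chromosome 5 and is the 3'-most coding exon of the gene. With a pseudocount of 10 in place of 1 the difference was -0.45 and missed the rule.

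Bcl2l1, the survival gene, stood at 5.48 in progenitors and at 53.7 in erythroblasts. Its log2 difference of 3.08 ranked 37 of 5194 genes. Both listed exons rose, to very different degrees. The exon starting at 152655163 on chromosome 2, the more 5' of the pair, went from 2.52 to 41.4, a 16.4-fold rise. The 3'-most coding exon, starting at 152607881, went from 2.96 to 12.3, a 4.15-fold rise. The more 5' exon thereby held 45.9% of the gene's coverage in progenitors and 77.1% in erythroblasts. The SD of 1.30 between the 2 exon differences exceeded that of 98.3% of the 897 genes with 2 listed exons. The direction was the same with either exon alone, with log2 differences of 1.75 and 3.59. The size of the rise therefore depends on which exon is read, while both lie past the rule.

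Pim1, the survival kinase gene, went from 25.3 to 106, a log2 difference of 2.03 that ranked 162 of 5194. All 4 listed exons, on the forward strand of chromosome 17, passed the rule. The first coding exon, starting at 29628089, went from 3.94 to 9.66. The next listed exon, at 29628610, went from 9.83 to 40.1, that at 29630667 from 3.90 to 23.7, and that at 29631535 from 7.63 to 32.6. The first coding exon thus rose least, 2.45-fold, and the exon at 29630667 most, 6.09-fold. The SD over exons was 0.52.

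Foxo3 went from 65.2 to 157, a log2 difference of 1.26. Its 2 listed exons start 78.3 kb apart on the reverse strand of chromosome 10 and moved almost equally. The exon at 41916307 went from 61.5 to 147 and that at 41994622 from 3.68 to 9.91, differences of 1.24 and 1.22. Only 2.68% of the genes with 2 listed exons had a smaller SD than its 0.02. Foxo3 and Bcl2l1, both read from 2 exons, thus lie at opposite ends of that range.

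**Figure D2:**
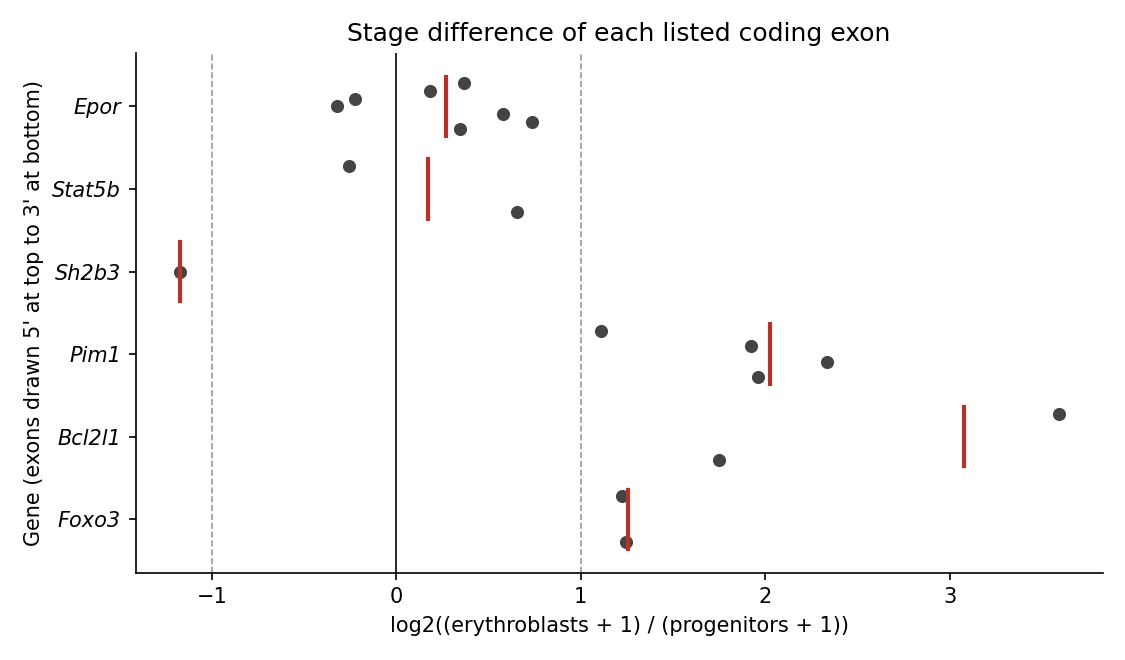
Log2 difference between erythroblasts and progenitors of each of the 18 listed exons (points, drawn from 5' at the top to 3' at the bottom within each gene) and of the summed gene (vertical bar). Dashed lines mark the 2-fold rule. The 8 exons past it on the right belong to Pim1, Bcl2l1 and Foxo3, and the exon of Sh2b3 lies past it on the left.

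Across the 18 exons, 14 were higher in erythroblasts, 8 of them at least 2-fold by the rule, and 1 was at least 2-fold lower by it. Over all 22365 exons of the table's genes 53.4% were higher, 15.5% at least 2-fold by the same rule, and 11.3% were at least 2-fold lower. All 8 exons that rose belong to 3 genes, and exons of 1 gene are not independent.

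EKLF peaks were then located around the members. All 6 listed members had a progenitor peak and an erythroblast peak within 50 kb of a listed exon, as had 70.1% and 88.0% of all genes, so presence in this window is common. The window held 7 progenitor peaks, all of which overlapped an erythroblast peak, and 17 erythroblast peaks, of which 7 overlapped a progenitor peak. In the whole lists 80.9% of progenitor and 30.9% of erythroblast peaks were shared in this way. The farthest peak inside the window lay 46.6 kb from a Pim1 exon and the nearest outside it 52.7 kb from Pim1, both in the erythroblast list. Enrichments come from the authors' lists and are compared inside a list, not across lists. Each list pools its stage, so peaks have no replicate check.

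The members differed in where their peaks lay. Bcl2l1, Pim1 and Foxo3 had peaks of both lists within 1 kb of their 5'-most listed exon start, and Epor, Stat5b and Sh2b3 had none in either list. Over all genes 16.0% had peaks of both lists there. The 3 members with such peaks are the 3 that rose. Over the whole table the share was no higher among genes that rose than among the others. Such peaks were present at 15.9% of the 794 genes that rose, 14.2% of the 685 that fell and 16.3% of the 3715 that did neither. The position depends on which exons are listed, since Stat5b and Sh2b3 are represented by exons near their 3' ends. Peaks at the 5' ends of these genes were therefore not tested, and the contrast with the members that rose may not hold there. Whether the shared peak upstream of the listed Sh2b3 exon, 17.9 kb away in progenitors, lies at the gene's 5' end was not tested. Exon names give the lower coordinate of an exon, which is its 3' end for the reverse-strand genes (all but Pim1).

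Pim1 had the strongest peaks of the 6 genes. The progenitor peak, on chromosome 17 from 29626243 to 29629356, covered the start of the first coding exon with an enrichment of 21.4 and ranked 74 of 7358. The overlapping erythroblast peak, from 29626129 to 29629872, had an enrichment of 28.4 and ranked 130 of 19353. A further erythroblast peak without a progenitor partner, from 29631365 to 29634935, covered the start of the last listed exon with an enrichment of 14.1. Pim1 thus had peaks at both ends of its listed exons in the erythroblast list and at the 5' end alone in the progenitor list. Weaker erythroblast peaks lay 5.25 kb beyond the last listed exon start and 46.6 kb upstream, with enrichments of 9.09 and 8.23.

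At Bcl2l1 a shared peak lay on the 5' side of the listed coordinate of the more 5' exon. That coordinate is the exon's 3' end and exon lengths are not given, so whether the peak overlaps the exon was not tested. In progenitors it ran from 152655389 to 152658432, 226 bp from that coordinate, with an enrichment of 14.5, above 96.6% of that list. In erythroblasts it ran from 152656019 to 152658245, 856 bp from it, with an enrichment of 15.1, above 86.9% of that list. The peak at the 5' side was therefore already listed in progenitors, where the coverage of Bcl2l1 was low. Erythroblast peaks without a progenitor partner lay between the 2 listed exon starts, from 152614560 to 152616063 (enrichment 8.27), and 18.2 kb upstream, from 152673370 to 152674526 (13.2). The remaining shared peak, 45.1 kb from the 3'-most exon, covered the listed exon of the neighbouring gene Id1.

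Foxo3 had 1 peak per list, and they overlapped. The progenitor peak spanned 41993864 to 41998969 on chromosome 10, with an enrichment of 6.96, above 48.6% of its list. The erythroblast peak, from 41994182 to 41998937, had 13.6, above 81.6% of its list. Both covered the listed coordinate of the more 5' exon, which is that exon's 3' end. No peak lay over the listed coordinate of the 3' exon, which carries most of the coverage with exon length not divided out.

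Epor had no peak between its listed exons or on their 5' side within 39 kb. The nearest, shared by both lists, lay 2.12 kb beyond the 3' end of the listed exons in progenitors and 2.32 kb beyond it in erythroblasts. It ran from 21759690 to 21761381 in progenitors (enrichment 9.66) and from 21759639 to 21761179 in erythroblasts (11.4). Its position covers the listed exon of the neighbouring gene Swsap1. The other erythroblast peaks lay 39.9 kb upstream, 115 bp from a listed exon of Prkcsh, and 40.2 kb downstream. No peak of either list had Epor as its nearest listed gene.

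At Sh2b3 a shared peak lay 17.9 kb upstream of the listed exon in progenitors, from 122285704 to 122289650 with an enrichment of 7.03. In erythroblasts it ran from 122285614 to 122289485 with 11.0. Further erythroblast peaks without a progenitor partner lay 24.6 and 30.2 kb upstream, with enrichments of 8.83 and 11.9. Sh2b3 thus had 3 erythroblast peaks and 1 progenitor peak within 50 kb, where the median over all genes was 2 and 1. At Stat5b all peaks within 50 kb lay on the 3' side. These were a shared one 43.6 kb away in progenitors (enrichment 12.4) that was nearer to Rab5c, and an erythroblast peak 23.0 kb away (12.1). Since the listed Stat5b exons lie near its 3' end, whether the window reached its 5' end was not tested. The nearest peaks outside the window lay 62.1 kb from a listed exon in progenitors and 62.3 kb in erythroblasts.

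**Figure D3:**
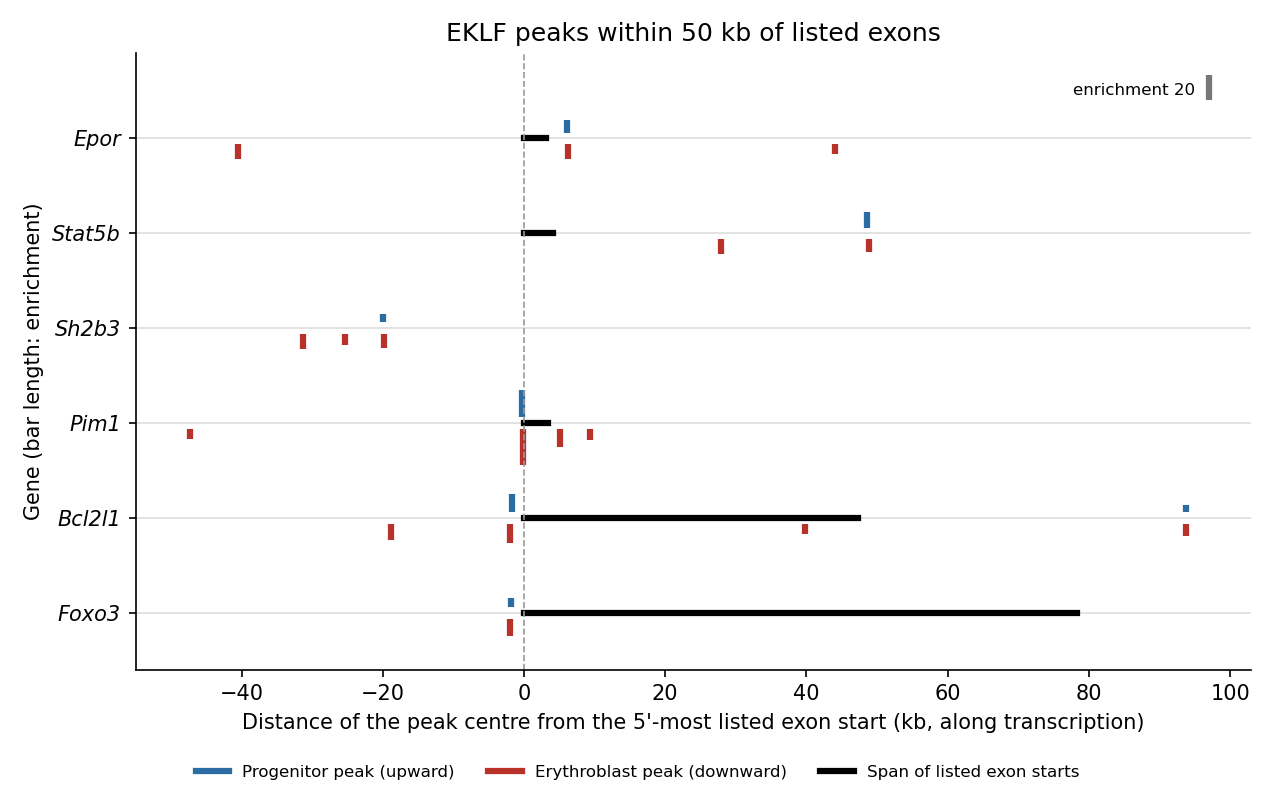
Peak centres within 50 kb of a listed exon, in kb from the 5'-most listed exon start along the direction of transcription. Bars upward are progenitor peaks, bars downward erythroblast peaks, and bar length is the authors' enrichment, to be read within 1 list (scale bar 20). Black lines span the listed exon starts. Pim1, Bcl2l1 and Foxo3 have peaks of both lists next to 0, and the near edge of the nearest Epor peak lies 5.27 kb downstream of it.

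The sequence before the transcription start is shown for the 3 genes with a 5' peak in both lists and for Epor, which had none. RefSeq windows were found for all 6 listed members, and the 250 bases before the outermost annotated start are printed 5' to 3' in the direction of transcription. They come from build GRCm38.p6, not mm9, so whether a window lies inside a peak was not tested. Capitals mark matches, on either strand, to CCNCNCCC, the core of the EKLF consensus, and to AGATAA, the motif of an erythroid factor family led by GATA1. Adjoining and overlapping matches form 1 run, and TTCNNNGAA, the STAT5 motif, was searched too. The windows are at chr9:21963577-21963826, reverse strand (Epor), chr2:152831729-152831978, reverse strand (Bcl2l1), chr17:29490535-29490784, forward strand (Pim1) and chr10:42276696-42276945, reverse strand (Foxo3).
Epor: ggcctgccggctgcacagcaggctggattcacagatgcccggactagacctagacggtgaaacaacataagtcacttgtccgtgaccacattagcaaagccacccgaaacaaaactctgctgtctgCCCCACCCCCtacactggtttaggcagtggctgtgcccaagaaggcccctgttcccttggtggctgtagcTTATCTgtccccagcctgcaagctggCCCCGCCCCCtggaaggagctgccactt
Bcl2l1: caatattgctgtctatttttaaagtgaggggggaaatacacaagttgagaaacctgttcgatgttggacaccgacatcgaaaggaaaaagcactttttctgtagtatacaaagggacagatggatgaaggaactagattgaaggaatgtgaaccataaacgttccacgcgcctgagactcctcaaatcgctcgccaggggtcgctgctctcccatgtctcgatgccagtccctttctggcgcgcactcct
Pim1: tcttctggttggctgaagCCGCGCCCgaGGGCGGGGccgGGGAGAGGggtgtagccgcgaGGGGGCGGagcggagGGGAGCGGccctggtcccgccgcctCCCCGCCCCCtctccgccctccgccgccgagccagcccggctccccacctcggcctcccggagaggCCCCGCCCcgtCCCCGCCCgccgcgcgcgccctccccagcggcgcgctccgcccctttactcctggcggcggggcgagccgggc
Foxo3: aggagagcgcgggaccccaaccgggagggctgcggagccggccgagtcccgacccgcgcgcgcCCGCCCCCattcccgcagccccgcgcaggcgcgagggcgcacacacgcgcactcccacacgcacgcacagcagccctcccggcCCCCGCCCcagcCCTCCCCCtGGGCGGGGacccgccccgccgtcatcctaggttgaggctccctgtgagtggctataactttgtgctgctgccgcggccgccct

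The window of Epor held 4 matches to CCNCNCCC, in 2 overlapping pairs that begin 124 and 28 bases before the start. One of them has the form CCNCACCC, which 14.7% of all 27025 windows of that length and 16.6% of those of listed genes held. Between the pairs, 54 bases before the start, lies a match to AGATAA on the reverse strand. That motif was found in 10.2% of all windows and 5.21% of those of listed genes. Epor was the only member whose outermost window held CCNCACCC or AGATAA. Pim1 had 9 matches to CCNCNCCC, Foxo3 4, Sh2b3 6 and Stat5b 2. These letters are common, as 45.6% of all windows and 64.3% of those of listed genes held CCNCNCCC, and the windows of Pim1 (82.4% G and C) and Foxo3 (76.4%) were far richer in G and C than the median window (52%). The outermost window of Bcl2l1 (47.6% G and C) had no match to any motif searched. Of its 3 annotated starts, 1 had 2 matches to CCNCNCCC and 1 had 1 match to AGATAA. TTCNNNGAA, held by 7.14% of all windows and 5.49% of those of listed genes, was in no window of the 6 members. A match describes letters and not a bound site.

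The rest of the pathway was read from 7 lists of genes, of which 79 of 154 were listed in the table. Of these 16 rose, 11 fell and 52 did neither, with a median log2 difference of 0.17 against 0.03 over all genes. For this count and those of each list below, the shares over all genes were 15.3% risen and 13.2% fallen. No list was tested against these shares. The lists overlap and include the members.

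Over all genes, 3715 of 5194 neither rose nor fell by the 2-fold rule. Of 4 listed receptor genes, Epor and the interferon receptor gene Ifngr1 (2.40 and 1.19) were under it. Tfrc, which encodes the transferrin receptor and sort marker CD71, rose from 21.3 to 148. Tfr2, whose protein is known to bind the erythropoietin receptor, fell from 60.6 to 4.54 on 2 exons. Of 5 listed kinase and STAT genes none rose and 1 fell. The kinase gene Jak1 had 34.7 and 44.7, with 8 of 12 exons higher, and Stat6 had 25.4 and 18.9. Stat3 fell from 17.2 to 6.63, but the median of its 3 exon differences was -0.16.

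Among the 25 listed adaptors and kinases below the receptor 3 rose, 2 fell and 20 did neither, with a median of -0.03. The AKT kinase genes, whose products phosphorylate FOXO3, went opposite ways. Akt1 fell from 175 to 29.6 with all 13 exons lower, and Akt2 rose from 29.9 to 73.5 with all 7 exons higher, though the median of its exon differences, 0.93, missed the rule. The MAP kinase kinase genes Map2k1 (16.7 to 45.2) and Map2k2 (43.3 to 111) rose with every listed exon higher. The adaptor gene Irs2 (80.8 and 127) and the RAF kinase gene Araf (41.9 and 38.5) were under the rule.

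Inhibitors of the pathway did not share a direction. Of 9 listed, 1 rose, 2 fell and 6 did neither, with a median of 0.53. Besides Sh2b3, the phosphatase gene Ptpn1 fell from 14.1 to 4.92 with all 3 exons lower. Dok1, an adaptor that dampens RAS signalling, rose from 14.7 to 49.3. Cish, a STAT5-induced feedback inhibitor, had 71.9 and 64.3, and Inpp5d, the SHIP1 phosphatase gene, had 127 and 83.0, both under the rule.

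Targets of STAT5 and the receptor split. Of 14 listed, 4 rose, 4 fell and 6 did neither, with a median of -0.32. Bcl2l1, Pim1 and Tfrc were among the rises. The D-type cyclin genes went opposite ways. Ccnd2 fell from 143 to 16.1, and Ccnd3 rose from 124 to 407 with all 5 exons higher. The immediate early gene Egr1 fell from 83.7 to 14.2 on 1 exon. Cish and Podxl, which encodes the surface protein podocalyxin (227 and 122), were under the rule. The rise of Bcl2l1 and Pim1 was therefore not shared by the list.

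The BCL2 family sets the balance between survival and mitochondrial cell death. The list read for it also holds genes of BCL2-interacting proteins such as Bnip2. In this list 4 of 9 listed genes rose and 1 fell, with a median of 0.79. Bcl2l1 had the largest difference. Bnip2 rose from 3.05 to 22.1, Bnip3l, a mitophagy receptor needed to clear mitochondria from red cells, from 21.7 to 71.1, and Bcl2l13 by 1.51 on the log2 scale, though the median of its exon differences was 0.82. The gene that fell was the effector gene Bak1, from 37.7 to 14.5 with all 4 exons lower. The effector gene Bax (30.3 and 53.2) and the anti-apoptotic gene Mcl1 (23.1 and 16.2) were under the rule. All 5 exons of Bax were higher, and the median of their differences, 1.02, would pass the rule. The 2 effector genes thus differed in direction.

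Of 18 listed FOXO factors and FOXO3 targets 6 rose, none fell and 12 did neither, with a median of 0.67, and Foxo3 itself is 1 of the 6. Cdkn1b, a cell cycle inhibitor gene, rose from 3.99 to 34.4 and Gadd45a, a stress response gene, from 1.53 to 9.01, each on 1 exon. The catalase gene Cat rose from 52.3 to 185 with 11 of 13 exons higher, and the autophagy gene Map1lc3b from 5.24 to 18.9 on 1 exon. The antioxidant enzyme genes Gpx1 (506 and 659) and Prdx3 (84.3 and 139) were under the rule. So was the antioxidant enzyme gene Sod2, which was lower in erythroblasts (43.3 and 24.0). Of the 18 genes, 13 were higher in erythroblasts, and the others were lower. With a pseudocount of 0.1, or with the columns scaled by their median ratio, 1 gene of this list fell.

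**Figure D4:**
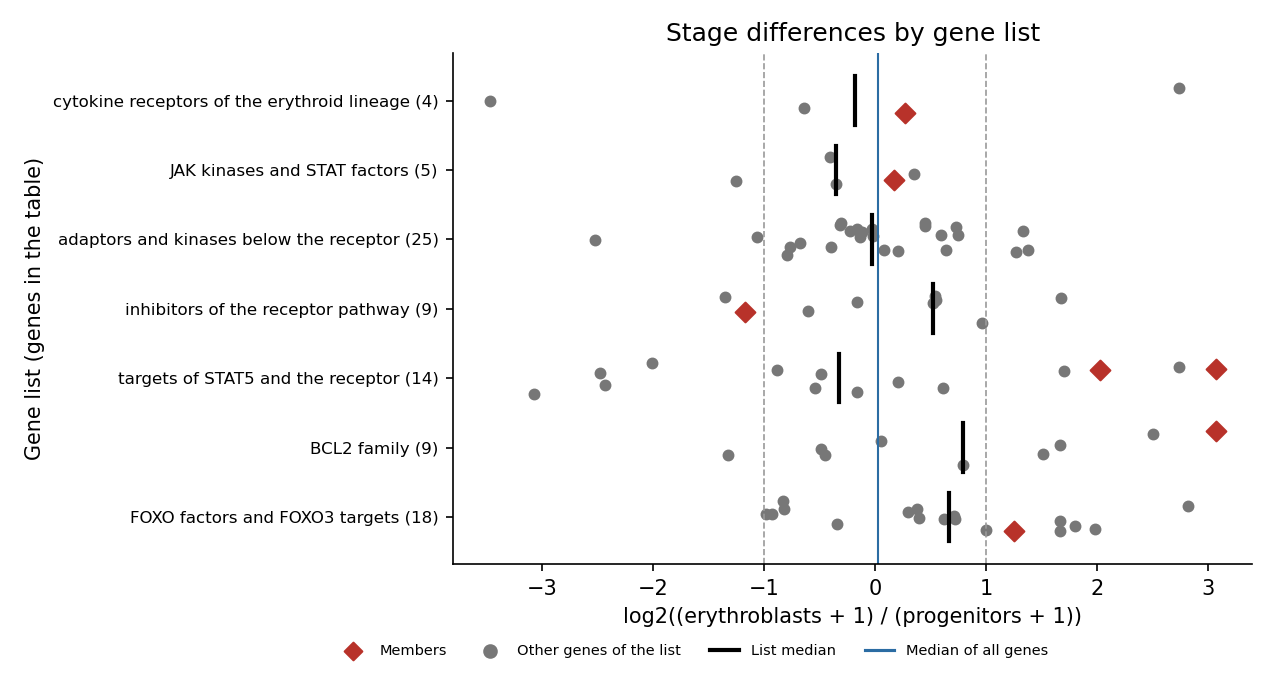
Log2 differences between erythroblasts and progenitors of the listed genes in 7 lists (number of genes in brackets), with the listed members as diamonds, list medians as black bars and the median of all genes, 0.03, as a blue line. Dashed lines mark the 2-fold rule, and the vertical scatter within a list has no meaning. Bcl2l1 has the highest value in both lists that hold it.

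The genes whose stage difference was nearest to that of Epor, among 2725 genes with at least 3 listed exons and at least 5 in the higher stage, were Traf7 (0.27), Man1b1 (0.27) and Rnf220 (0.27). Those nearest to Bcl2l1 (3.08) were Ppard (3.02), the ankyrin gene Ank1 (3.15) and the adducin gene Add2 (2.97). Likeness was measured as the gap between log2 differences over the 2 stages, and with 2 values per gene many genes are close by this measure.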

How the data were processed

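EKLF ChIP-seq, its input controls and RNA-seq were made from sorted fetal liver cells. The deposited exon table is named as RPKM, but per its values it is a coverage signal. Each column is built from a single smallest step (100% of values were within 0.01 step of a multiple), 1835 to the unit for progenitors and 2151 for erythroblasts, so no exon length was divided out. No source used here says whether the erythroblast column pools both libraries. RNA was read in pairs of 51 bp, per the labels. The deposited peaks come as a pooled list for each stage, in build mm9 per the submitters' processing notes. From their ranges (at least 2.14 and at least 5), columns 7 and 8 were taken as the authors' fold enrichment and the authors' -log10 p, and the latter set the ranks. Aligner, counter and peak caller: not given in the sources used here.

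RefSeq accessions in exon names were matched to symbols (6772 of 6853 transcripts). For each gene the transcript with most listed exons was summed, and genes with at least 1 in a column were kept. A peak was near a gene where it lay within 50 kb of a listed exon start, and shared where at least 1 bp overlapped. No test between stages was possible with 1 value per stage. Members, lists and rules were chosen with earlier results of these data known. Within each list, up to 4 genes past the rule with at least 5 in the higher stage, by size of difference, and up to 2 of the best covered others are named. Bak1, Ccnd3 and Sod2 are named in addition, each chosen after its values were seen. Steps were tested on simulated data. Python 3.11.15, pandas 2.3.3 and numpy 2.4.6 were used.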

Additional observations from a re-analysis of the deposited data

How the results depend on the processing

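Of 180 alternative values for 32 results, 151 kept their direction and side of the rule or, for counts, stayed within 1.5 times the value reported, a tolerance that takes in 24 erythroblast peaks at 100 kb (17 at 50 kb). For shares of genes the tolerance was the Wilson 95% interval. Some alternatives could not differ from the main value. The filter of at least 5 in the higher stage left every listed member's value as it was, and so did the union of exons of all transcripts. The exon median of Sh2b3, read from 1 exon, equals its main value by construction. The count of 151 includes these. Bcl2l1, Pim1 and Foxo3 rose and Epor stayed under the rule in every alternative run. The exceptions among members were Sh2b3 with a pseudocount of 10 (-0.45, so 0 members fell) and Stat5b with 1 exon left out (-0.26). With a pseudocount of 10, 354 genes rose and 278 fell, since low genes are damped. That pseudocount left 0 falls in the BCL2 family, 0 among kinases and STAT factors, 0 among inhibitors and 1 among adaptors. With the median of exon ratios, 0 kinase and STAT genes and 1 adaptor fell. With a pseudocount of 0.1, 2 inhibitors rose and 1 FOXO list gene fell, as 1 did with median ratio scaling. By construction peak counts follow the window. At 5 kb the members had 4 progenitor and 5 erythroblast peaks, 4 of each shared, at 20 kb 9 erythroblast peaks, and at 100 kb 12 progenitor peaks. The higher-ranked 50% of the lists gave 6 erythroblast peaks. Of all genes, 30.7% had a progenitor and 45.9% an erythroblast peak at 5 kb, 51.7% and 72.2% at 20 kb, 82.3% and 95.3% at 100 kb, and 48.1% and 69.9% with the higher-ranked peaks. No paired analysis was possible because each stage has 1 column. For the same reason no replicate could be left out. Scaling moved the median of all genes by under 0.1 on the log2 scale. Exons under the lowest listed value limit what can be read of low genes.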

Other observations

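Bcl2l1 and Id1, which encodes an inhibitor of helix-loop-helix factors, are neighbours on chromosome 2 and differed in direction. Id1 was chosen here after its values were seen. Its 1 listed exon had 13.6 in progenitors and fell to 2.61 in erythroblasts (log2 difference -2.01), while Bcl2l1 rose from 5.48 to 53.7. Each had a shared EKLF peak. That covering the listed exon of Id1 had an enrichment of 5.48 in progenitors, above 19.8% of that list, and 9.46 in erythroblasts, above 50.3%.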
